A study of Mus musculus with 4 samples.

Results

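Interferon-stimulated genes were followed across 4 mouse gut RNA samples: 49 genes, taken by gene name from a list, out of 30175 gene names on the array. They were read by 69 probes on 87 spots, out of 39429 probes on 43020 spots that are not controls. The whole intestine array detected 47 of them well above background, the crypt array 45, the y-organoid array 38 and the o-organoid array 31. Over all genes, the counts well above background were 17709, 15715, 16352 and 16518 in the same order. On all 4 arrays 28 genes were above background, on 3 arrays 11, on 2 arrays 7 and on 1 array 2, while Tgtp1 was above it on none.

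Each of the 4 samples was hybridised to 1 one-colour Agilent array, so there are no replicates and no test between groups, and every difference below compares single arrays. The groups were whole intestine, crypt, and a pair of crypt-villus organoid samples called y-organoid and o-organoid. All are wild type and of strain C57/BL6, with no treatment or allele named in the labels, and ages, the number of animals and what y and o stand for are not given in the sources used here. Crypts are the epithelial pits that hold the gut's stem cells, and organoids are epithelial structures grown in culture, without the immune, stromal and muscle cells of the gut wall unless these are added. The labelling input was 20 ng of RNA, except for o-organoid, which had 40 ng. Since bulk RNA was measured, fewer cells of a type and less RNA per cell cannot be told apart.

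Interferons are secreted proteins that warn cells of virus infection. Type I and type III interferons bind receptors that signal through Jak kinases to a transcription factor complex that holds Stat2 and Irf9 and binds the interferon-stimulated response element (ISRE), and type II interferon acts through the gamma-activated site (GAS). The induced genes hold sensors of viral RNA, enzymes that degrade RNA or block its translation, proteins that trap viruses at membranes, and GTPases that attack the vacuoles of intracellular microbes. In the gut, epithelium answers mainly to type III interferon and shows a tonic level of these genes that depends on the microbiota.

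The promoters of 9 members are shown because their values carry the patterns described below. They are the 150 bases before the transcription start, 5′ to 3′ along the gene, from RefSeq on build GRCm38.p6. Capitals mark the ISRE letters (GAAA, any 2 bases, GAAA) and the GAS letters (TTCNNNGAA), searched on both strands, and matches that overlap run together. Isg15, the ubiquitin-like modifier, lies at chr4:156200819-156200968 (minus strand), Ifit1, which binds viral RNA, at chr19:34640739-34640888 (plus strand), and Oas1a, a 2-5A synthetase, at chr5:120907526-120907675 (minus strand). Rsad2, the antiviral enzyme viperin, lies at chr12:26456453-26456602 (minus strand), Bst2, which tethers budding viruses, at chr8:71537473-71537622 (minus strand), and Igtp, an immunity-related GTPase, at chr11:58199406-58199555 (plus strand). Irf1, a transcription factor with 2 promoters in the table, is shown at chr11:53769864-53770013 (plus strand), and the apolipoprotein L genes Apol9a and Apol10a at chr15:77411035-77411184 (minus strand) and chr15:77476897-77477046 (plus strand).
Isg15: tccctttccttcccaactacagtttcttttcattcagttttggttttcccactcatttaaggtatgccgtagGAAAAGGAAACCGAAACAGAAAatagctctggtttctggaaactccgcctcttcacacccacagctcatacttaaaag
Ifit1: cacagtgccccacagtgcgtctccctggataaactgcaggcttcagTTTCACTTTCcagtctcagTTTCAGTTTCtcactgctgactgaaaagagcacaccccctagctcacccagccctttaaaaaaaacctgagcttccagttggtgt
Oas1a: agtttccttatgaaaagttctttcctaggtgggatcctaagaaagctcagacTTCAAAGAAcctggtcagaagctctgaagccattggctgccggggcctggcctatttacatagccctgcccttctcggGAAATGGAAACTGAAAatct
Rsad2: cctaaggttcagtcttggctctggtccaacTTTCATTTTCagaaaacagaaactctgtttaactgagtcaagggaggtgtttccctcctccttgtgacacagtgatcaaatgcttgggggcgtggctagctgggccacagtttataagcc
Bst2: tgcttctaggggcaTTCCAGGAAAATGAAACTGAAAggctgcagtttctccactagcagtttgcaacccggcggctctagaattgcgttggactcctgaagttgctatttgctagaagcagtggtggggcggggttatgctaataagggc
Igtp: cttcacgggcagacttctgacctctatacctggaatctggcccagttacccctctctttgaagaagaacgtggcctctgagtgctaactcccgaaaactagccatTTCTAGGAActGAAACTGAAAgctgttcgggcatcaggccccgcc
Irf1: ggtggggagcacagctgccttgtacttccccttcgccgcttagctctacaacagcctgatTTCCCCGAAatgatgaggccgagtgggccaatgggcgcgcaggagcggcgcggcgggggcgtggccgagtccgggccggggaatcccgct
Apol9a: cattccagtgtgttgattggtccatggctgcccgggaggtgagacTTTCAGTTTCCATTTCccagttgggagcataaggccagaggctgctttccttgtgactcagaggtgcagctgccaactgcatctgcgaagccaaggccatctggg
Apol10a: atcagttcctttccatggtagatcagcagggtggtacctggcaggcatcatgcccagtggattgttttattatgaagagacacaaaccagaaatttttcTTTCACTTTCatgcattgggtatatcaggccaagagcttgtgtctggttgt
In Isg15, 3 overlapping ISRE matches began 78, 72 and 66 bases before the start. Irf1 held a GAS match and no ISRE match in this window. Bst2 held a GAS match that overlaps only the ISRE match farther from the start.

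Promoter entries were found for 38 of the 49 genes, each window running from 250 bases before to 50 after the start. Dhx58, Zbp1, Oas2, Usp18, Parp9, Parp14, Mx1, Mx2, Rtp4, Ly6e and Iigp1 had none in the table. ISRE letters were in a promoter of 22 of the 38 genes (57.9%), and of 1079 of all 27025 genes in the table (3.99%). GAS letters were in 12 of 38 (31.6%), and in 2582 of all genes (9.55%). Matches were counted in each promoter window. Those of Apol9a and Apol9b, whose windows overlap, were therefore counted more than once, from different starts. Counted so, the 38 ISRE matches of members had a median position of -59 bases from the start, with a range from -222 to 32. Of these, 31 lay within the 150 bases before it. A match is a description of letters, and binding was not measured.

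**Figure D1:**
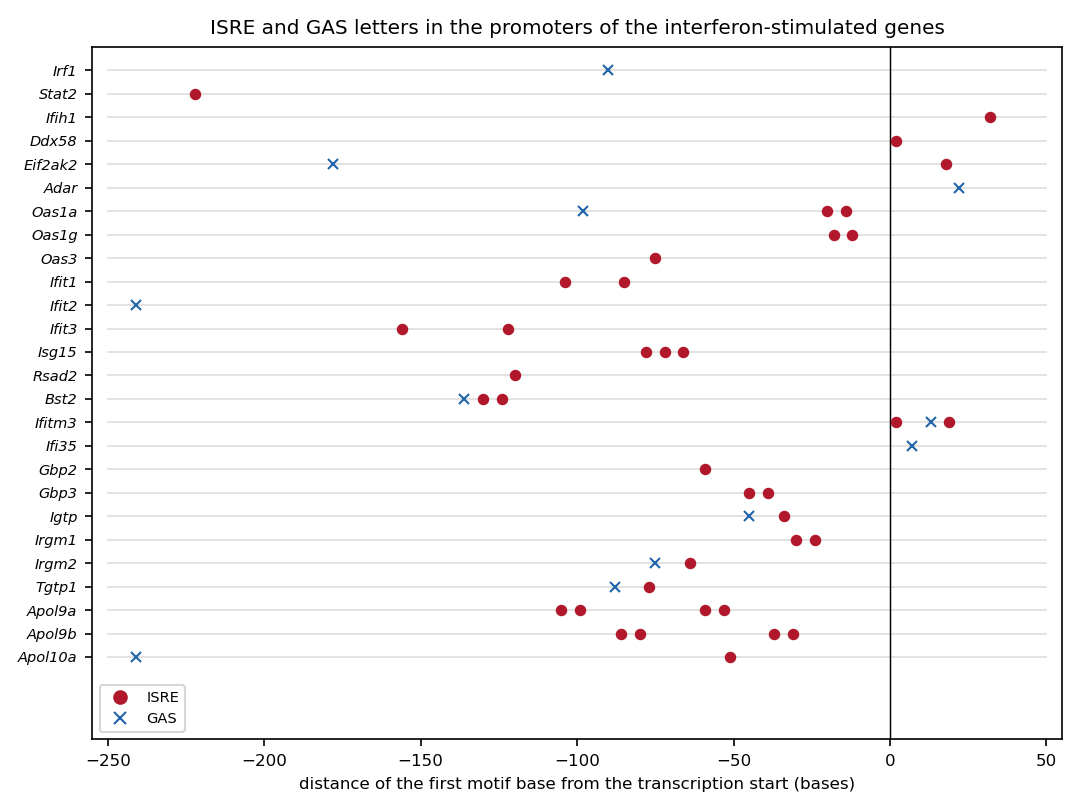
Position of each ISRE match (red circles) and GAS match (blue crosses) in bases from the transcription start, for the members with a match in a RefSeq promoter window; all starts of a gene share a line. Of the 38 ISRE matches, 33 lie before the start, with a median of -59. Matches are counted in each window, so those in the overlapping windows of Apol9a and Apol9b appear more than once.

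Signals are given as relative signal, the processed intensity divided by the array's 75th percentile, on a linear scale, and differences as fold or as log2 of the ratio. Where a gene had several probes, the one with the highest mean was used. Probes of a gene were not set against those of another, since brightness depends on the probe. The SD between repeated spots on an array had a median of 0.061 (intestine), 0.076 (crypt), 0.066 (y-organoid) and 0.049 (o-organoid) on the log2 scale, and spot noise alone gives differences between arrays an SD of 0.082 to 0.101. Genes at or past 2-fold were counted as higher or lower. Where only one side was well above background, the difference is a bound, written "at least", against the higher of the dim signal and the lowest signal well above background on that array (relative signals of 0.0448, 0.0435, 0.0452 and 0.0312 in the same order).

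Compared with whole intestine, the crypt array held lower signals for most of the list. Of 47 members that could be compared, 35 were past 2-fold lower (14.3% of the 18215 genes compared) and 0 were higher (6.83% of genes). At 4-fold, 24 were lower, as were 1336 of the 18215 genes. The median difference was -2.03 on the log2 scale, against 0.06 over all genes. Scaling by the array median, as in the table the authors deposited, added 0.74 to every difference, so that all genes had a median of 0.80, with 37.5% higher and 8.48% lower, and 25 of the 35 members stayed past 2-fold. Stat2, Ifih1, Ddx58, Cmpk2, Samd9l, Ifi35, Irgm1, Iigp1, Apol9a and Apol9b did not. The added constant moves both medians alike, so by construction the members' median lay 2.10 below that of all genes under either scaling.

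Both organoid arrays held lower signals again. On the y-organoid array, 27 of 45 members were at least 2-fold below crypt (13.6% of the 17210 genes compared) and 2, Bst2 and Ly6e, were above it (18.4%), with a median of -1.53 against 0.15 over all genes. Under normexp background correction 19 of the 27 stayed past 2-fold, without Oas2, Oas3, Ifit2, Usp18, Mx1, Xaf1, Gbp2 and Irgm1. Median scaling added -0.51 here, and the all-gene split was 9.16% higher and 26.6% lower under it, and 25.3% higher and 10.4% lower with the percentile taken over probes detected on all arrays. On the o-organoid array, 37 of 47 were below crypt (13.6% of 17211 genes) and 0 above (8.52%), with a median of -2.37 against 0.00. Of the 37, 15 rest on bounds, since the gene was not well above background on the o-organoid array. Normexp correction kept 33 of the 37, without Stat2, Ifit2, Mx1 and Sp100. These comparisons share the crypt array.

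Between the organoids, 23 of 41 members were past 2-fold lower in o-organoid than in y-organoid (19.3% of 17309 genes) and 1, Ifitm3, was higher (8.32%). The median difference was -1.24, against -0.15 over all genes, and 9 of the 23 are bounds. Median scaling added 0.64, which gave all genes a median of 0.45, with 25.5% higher and 6.41% lower, and left 16 of the 23 members past 2-fold, without Irf9, Stat2, Adar, Oas2, Parp14, Rsad2 and Iigp1. The members' median was then -0.60, which is 1.05 below that of all genes. Of the 28 members above background on both organoid arrays, 23 were lower on o-organoid by any amount, as were 57.2% of 15561 genes.

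**Figure D2:**
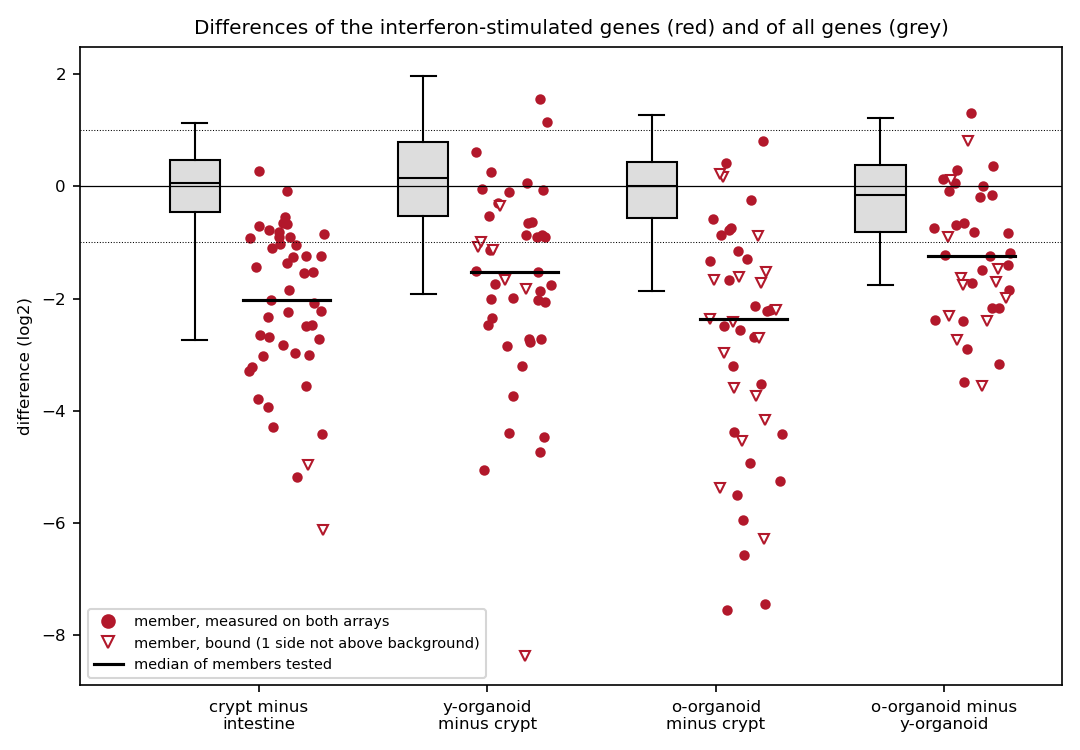
Differences on the log2 scale in the 4 comparisons, with members as red points (open triangles are bounds), the members' median as a black bar, and all genes compared as grey boxes (quartiles, whiskers from the 5th to the 95th percentile). Dotted lines mark 2-fold. The members' medians are -2.03, -1.53, -2.37 and -1.24 from left to right.

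The signal was highest on the intestine array in 46 of the 48 members above background anywhere, as in 27% of all such genes. The exceptions were Apol10a, highest on the crypt array, and Oas1g, above background only on the o-organoid array at 0.0490. Of the 45 members above background on intestine and crypt, 38 ran in the order intestine, crypt, then both organoids (13.9% of 15209 genes), and Stat2, Bst2, Ifitm3, Samd9l, Ly6e, Iigp1 and Apol10a did not. These orders count any difference, however small, and under median scaling 41 of 48 were highest on intestine (14.5% of genes) and 36 of 45 in that order (4.58%).

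**Figure D3:**
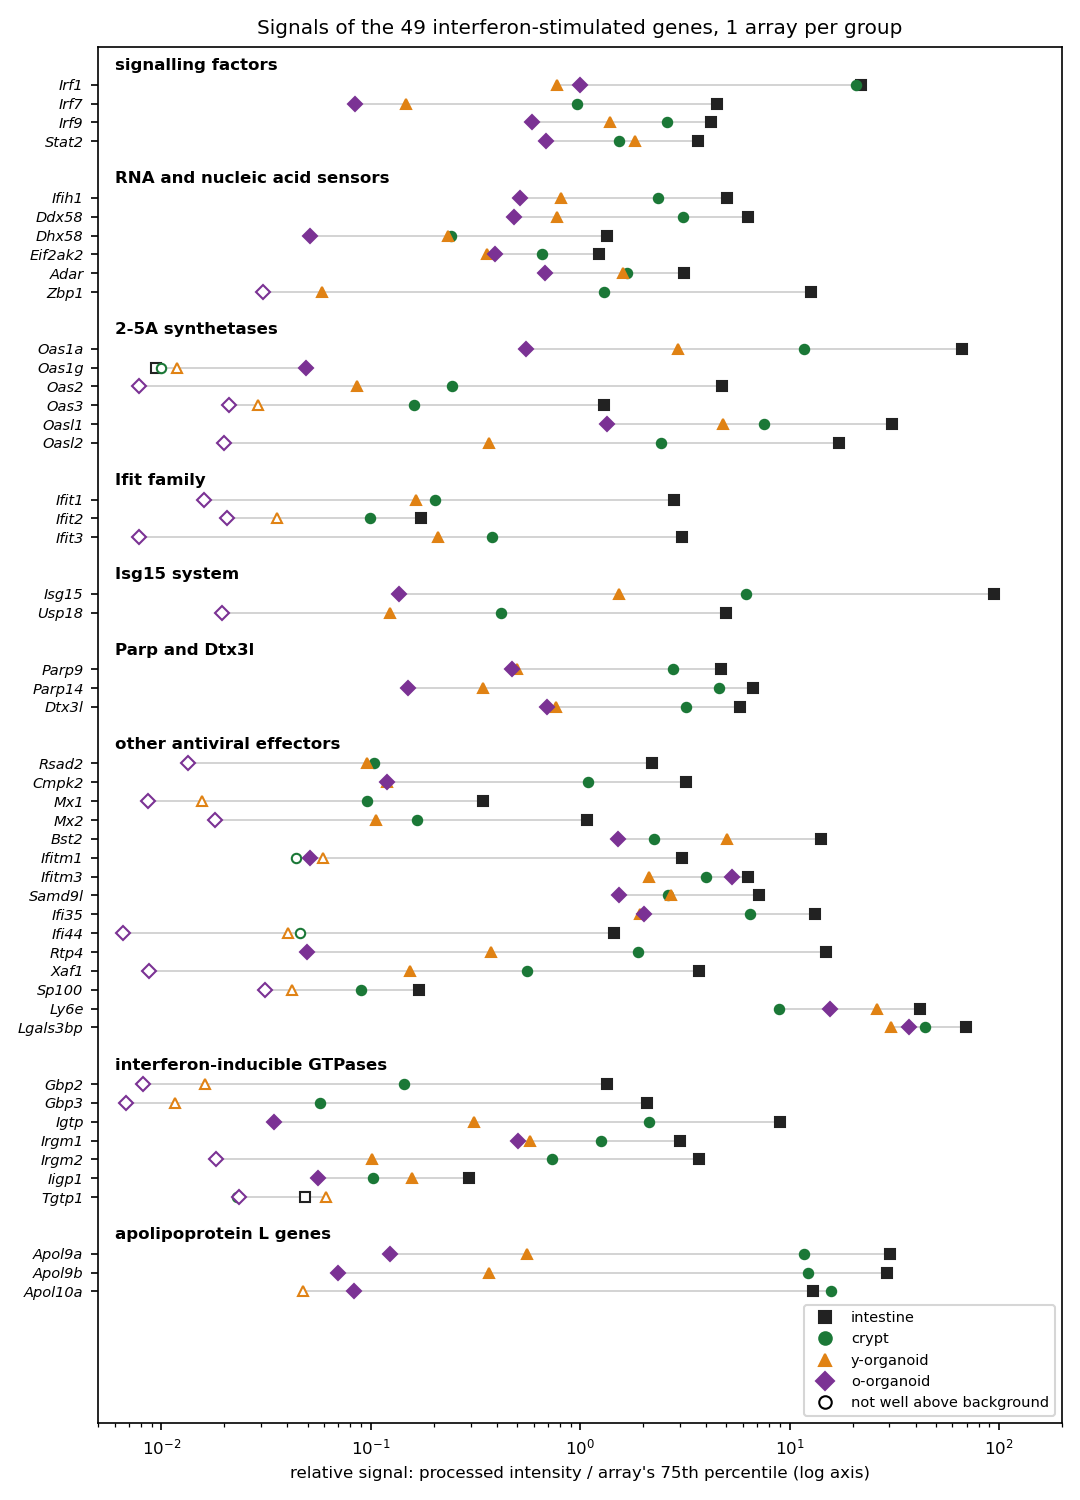
Relative signal of each member on the 4 arrays, on a log axis, grouped by role; filled symbols are well above background and open ones are not. Isg15 runs from 94.6 on the intestine array to 0.137 on the o-organoid array.

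The signalling factors Irf7, Irf9, Stat2 and Irf1 did not share a pattern. Irf7, the factor that amplifies interferon production, had relative signals of 4.48 on intestine, 0.963 on crypt, 0.147 on y-organoid and 0.0838 on o-organoid. It was stepwise lower, by 4.65-fold from intestine to crypt, 6.56-fold from crypt to y-organoid and 11.5-fold from crypt to o-organoid. Irf1, which drives targets of interferon gamma and basal antiviral genes, gave 21.9, 20.8, 0.779 and 1.0 in the same order. Crypt and intestine differed by 1.06-fold, a direction that turned under median scaling, while the y-organoid and o-organoid arrays were 26.7-fold and 20.7-fold below crypt. A second Irf1 probe, for another transcript, was not above background on any array.

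Irf9, the DNA-binding subunit of the type I and III complex, gave 4.23, 2.60, 1.39 and 0.591 on intestine, crypt, y-organoid and o-organoid. Its partner Stat2 gave 3.65, 1.54, 1.83 and 0.690. For Irf9, crypt to intestine (1.63-fold) and y-organoid to crypt (1.88-fold) stayed within 2-fold, and o-organoid was 4.40-fold below crypt. For Stat2, o-organoid was 2.23-fold below crypt and y-organoid 1.19-fold above it, a direction that turned to -0.26 on the log2 scale under median scaling. The o-organoid difference fell below 2-fold under normexp correction and with the percentile over detected probes.

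The sensors of foreign nucleic acid were lower on the crypt array in 4 of 6 genes, and on the o-organoid array, against crypt, in 5 of 6. Ddx58, the RNA sensor RIG-I, gave 6.33, 3.11, 0.778 and 0.484, and Ifih1, the sensor MDA5, gave 5.01, 2.35, 0.814 and 0.517. Crypt lay 2.03-fold and 2.13-fold below intestine for these genes, which is near the threshold and ended under normexp correction and under median scaling. Dhx58, which assists both sensors, gave 1.34, 0.241, 0.233 and 0.0516. Its crypt and y-organoid signals were close (1.03-fold apart), and the o-organoid signal was 4.67-fold below crypt.

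Zbp1, a sensor of left-handed double helices that can trigger cell death, had the widest range of the sensors. Its relative signal was 12.7 on intestine, 1.30 on crypt and 0.0587 on y-organoid, and on o-organoid it was not well above background. Crypt was 9.76-fold below intestine, y-organoid 22.1-fold below crypt and o-organoid at least 41.6-fold below crypt. Eif2ak2, the kinase PKR that halts translation, had the narrowest range of the sensors, with 1.23, 0.661, 0.361 and 0.394. Neither crypt against intestine nor either organoid against crypt passed 2-fold. Adar, which edits double-stranded RNA, gave 3.14, 1.68, 1.60 and 0.681, but its second probe put o-organoid only 0.34 below crypt on the log2 scale, against 1.30 for the probe read.

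The 2-5A synthetase family holds enzymes that make the messenger that activates RNase L. All 5 genes of this group that could be compared were past 4-fold lower in crypt than in intestine. Under median scaling, which added 0.74, Oas1a (-2.50 on the log2 scale before it) and Oasl1 (-2.03) fell below 4-fold. Oas1a gave 66.4, 11.8, 2.94 and 0.554, each array clearly apart from the next, with folds of 5.64, 4.0 and 5.31 between neighbours in that order. Oasl2, a relative that carries ubiquitin-like domains, gave 17.3, 2.43 and 0.369 and was not well above background on o-organoid, at least 77.9-fold below crypt. Oas2 showed the largest crypt to intestine gap of the family, at 4.77 and 0.244, or 19.5-fold. Oasl1 gave 30.9, 7.54, 4.84 and 1.35, so that y-organoid lay 1.56-fold below crypt. Oas3 was above background only on intestine (1.30) and crypt (0.162).

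The Ifit proteins bind viral RNA, and none of the 3 was above background on the o-organoid array. Ifit1 gave 2.82 on intestine, 0.203 on crypt and 0.165 on y-organoid. The step to crypt was 13.9-fold, y-organoid was only 1.23-fold below crypt, and o-organoid was at least 6.49-fold below crypt. Ifit3 gave 3.08, 0.378 and 0.209, and o-organoid was at least 12.1-fold below crypt. Ifit2 was near the floor, at 0.174 and 0.0997 on intestine and crypt and not above background on either organoid.

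Isg15 is attached to other proteins during infection, and Usp18 removes it and dampens receptor signalling. Isg15, whose probe lies at chr4:155573649-155573708 on build mm9, minus strand, gave 94.6 on intestine, 6.20 on crypt, 1.53 on y-organoid and 0.137 on o-organoid. The 4 arrays were well separated, with o-organoid 45.4-fold below crypt and 11.2-fold below y-organoid. Usp18 followed with 4.95, 0.419 and 0.123 and was not above background on o-organoid, at least 13.4-fold below crypt. The Isg15 probe shares a run of at least 25 bases with the probe of the gene named Gm9706, so its signal may hold both. A second Isg15 probe, with no such run, gave 7.45, 0.423 and 0.0881 and was dim on o-organoid. Its differences of -4.14 for crypt against intestine and -2.26 for y-organoid against crypt lay near the -3.93 and -2.02 of the probe read (log2).

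Parp9, Parp14 and Dtx3l, which act on ADP-ribose and ubiquitin in interferon signalling, were within 2-fold between crypt and intestine and lower in both organoids. Parp14 gave 6.72 on intestine, 4.60 on crypt, 0.344 on y-organoid and 0.151 on o-organoid. Crypt lay 1.46-fold below intestine, whereas the organoids lay 13.4-fold and 30.5-fold below crypt. Parp9 gave 4.73, 2.77, 0.501 and 0.471, and Dtx3l, its binding partner, gave 5.77, 3.19, 0.767 and 0.692. The organoids differed from each other by 1.06-fold for Parp9 and 1.11-fold for Dtx3l. The probes of Dtx3l differed by up to 1.03 on the log2 scale in the y-organoid to crypt difference, with the same sign, and one of them put crypt 1.08 below intestine, past 2-fold.

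With Irf1, Ifit2 and Apol10a, these are the 6 members that were within 2-fold between crypt and intestine and past 2-fold lower on both organoid arrays, out of 45 for which all 3 comparisons could be made (6.19% of 16195 genes). A further 21 members were lower in crypt and lower again in both organoids (1.06% of genes). Another 7, Stat2, Dhx58, Oasl1, Ifit1, Ifit3, Rsad2 and Mx2, were lower in crypt, and of the organoids only o-organoid was past 2-fold below crypt (0.963% of genes). Irf1, Irf9, Parp14, Ifitm3 and Lgals3bp, all within 2-fold between crypt and intestine, turned their sign in that comparison under median scaling. Under it Irf1 was 0.66 and Apol10a 1.01 higher on crypt than on intestine (log2), so that Apol10a passed 2-fold. The percentile over detected probes instead added -0.20 to this comparison. It put 40 of 47 members past 2-fold lower on crypt (17.2% of genes), Ifit2 and Dtx3l among them.

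Among the other antiviral effectors, 12 of 15 were lower on the crypt than on the intestine array. Rsad2 gave 2.21 on intestine, 0.103 on crypt and 0.0964 on y-organoid and was dim on o-organoid. Crypt was 21.3-fold below intestine, and crypt and y-organoid were 1.07-fold apart at signals near the floor. Cmpk2, the nucleotide kinase encoded beside Rsad2, instead gave 3.21, 1.09, 0.119 and 0.119, with its larger step, 9.18-fold, between crypt and y-organoid. Mx2, a GTPase that blocks virus replication, gave 1.07, 0.167 and 0.106 and was dim on o-organoid. Its relative Mx1 gave 0.344 and 0.0959 on intestine and crypt and was dim on both organoids.

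Rtp4, a chaperone of membrane receptors with antiviral activity, was lower at each step, with 14.9, 1.90, 0.374 and 0.0499. Xaf1, a promoter of cell death, gave 3.70, 0.560 and 0.154 and was dim on o-organoid. Ifi35, which binds other interferon-induced proteins, gave 13.3, 6.44, 1.94 and 2.02, with the organoids 1.04-fold apart. Ifi44 was above background on intestine alone, at 1.45, which puts crypt at least 31.5-fold lower. Ifitm1, a restrictor of virus entry, gave 3.08 on intestine, at least 69.7-fold above crypt, and 0.0515, near the floor, on o-organoid. Sp100, a nuclear body protein, was dim on both organoids, with 0.170 and 0.0897 on intestine and crypt.

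By the probes read, a smaller set of effectors was not past 2-fold below crypt in either organoid. Ly6e, a membrane protein that restricts coronavirus entry, gave 41.8 on intestine, 8.86 on crypt, 26.2 on y-organoid and 15.6 on o-organoid, so the organoids stood 2.95-fold and 1.76-fold above crypt. Bst2 gave 14.2, 2.26, 5.04 and 1.52, with y-organoid 2.23-fold above crypt and o-organoid 1.49-fold below it. Under median scaling the Bst2 difference of y-organoid from crypt was 0.64 on the log2 scale, below 2-fold, and that of Ly6e 1.05.

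Ifitm3, which blocks virus fusion in endosomes and was spotted 10 times, gave 6.33, 3.99, 2.14 and 5.30. By the probes read it was the only member past 2-fold higher on o-organoid than on y-organoid (2.48-fold), and its 10 spots had SDs between 0.038 and 0.070 on the log2 scale. Samd9l, a growth-restraining antiviral protein, gave 7.15, 2.62, 2.72 and 1.53, and its second probe put o-organoid 1.03 below crypt on the log2 scale, just past 2-fold. Lgals3bp, a secreted glycoprotein, gave 69.5, 44.3, 30.6 and 37.3, with no comparison past 2-fold. Its second probe differed, with 29.6, 21.7, 9.19 and 26.9. There y-organoid lay 1.24 below crypt and o-organoid 1.55 above y-organoid on the log2 scale, both past 2-fold, and o-organoid 0.31 above crypt, the other direction from the probe read. By the probes read, measured values of Eif2ak2, Ifitm3, Samd9l, Lgals3bp and Iigp1 were within 2-fold of crypt on both organoid arrays.

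**Figure D4:**
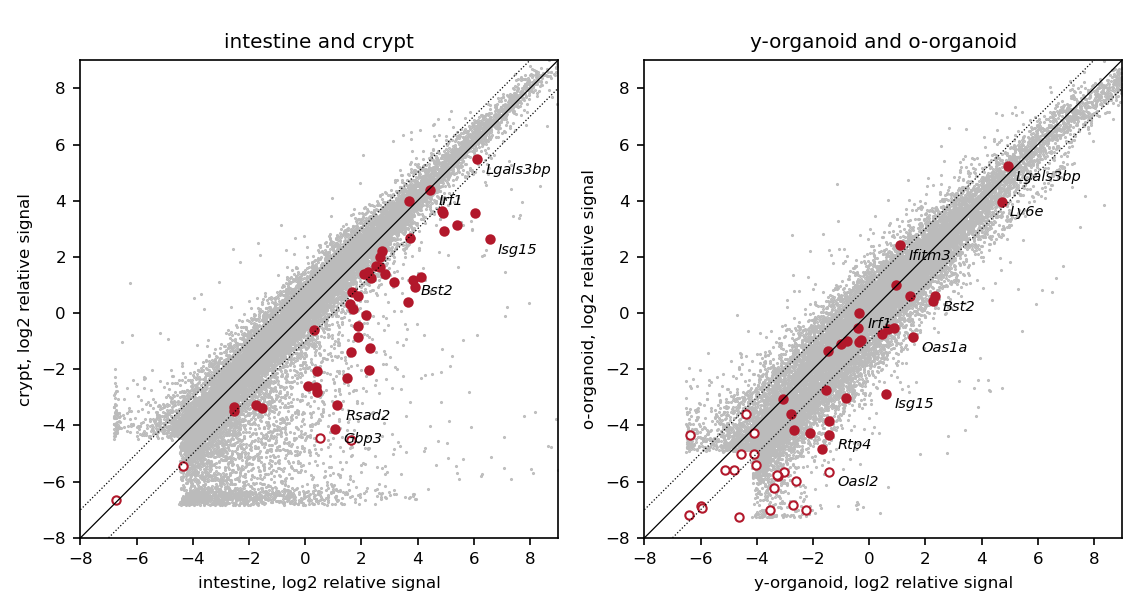
Log2 relative signal of all genes above background on at least one array of the pair (grey) and of the members (red; open where not above background on both arrays), crypt against intestine and o-organoid against y-organoid. Solid lines mark equal signal and dotted lines 2-fold. Isg15 lies below the lower dotted line in both panels, and Ifitm3 above the upper one in the organoid panel.

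The interferon-inducible GTPases coat vacuoles that hold microbes, and all 6 that could be compared were lower on crypt than on intestine. Gbp3, a guanylate-binding protein, gave 2.08 on intestine and 0.0574 on crypt, a 36.3-fold step, and was dim in both organoids. Gbp2 gave 1.34 and 0.144 and was likewise dim in the organoids. Igtp, read on 10 spots, gave 8.97, 2.13, 0.311 and 0.0346, with only 6 of its 10 spots above background on o-organoid, which lay 61.6-fold below crypt. Irgm2 gave 3.68, 0.730 and 0.102 and was dim on o-organoid, at least 23.4-fold below crypt.

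Irgm1, a regulator that keeps other such GTPases inactive, gave 3.01, 1.26, 0.577 and 0.504, with y-organoid 2.18-fold below crypt. That difference fell below 2-fold under normexp correction, with the percentile over detected probes and with the mean over probes. A second Irgm1 probe gave -0.98 for crypt against intestine and -0.75 and -0.91 for y-organoid and o-organoid against crypt (log2), all under 2-fold. Iigp1 ran low, at 0.294, 0.102, 0.157 and 0.0559, with y-organoid 1.54-fold above crypt and o-organoid 1.83-fold below it. Its crypt to intestine difference of 2.87-fold fell below 2-fold under normexp correction and under median scaling.

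The 3 apolipoprotein L genes, which belong to a family of intracellular lipid-binding proteins, had the lowest medians of the 9 role groups in both organoids, -5.06 on y-organoid and -7.45 on o-organoid. Apol9a gave 30.1 on intestine, 11.7 on crypt, 0.559 on y-organoid and 0.124 on o-organoid, and Apol9b gave 29.1, 12.3, 0.368 and 0.0702. The y-organoid signals were 21.0-fold and 33.4-fold below crypt, and the o-organoid signals 94.7-fold and 175-fold below. Their 60-base probes, at chr15:77234221-77234280 (minus strand) and chr15:77566751-77566810 (plus strand) on build mm9, are identical at 57 bases, and all 3 differences fall in the first 30 bases, shown with the differing bases in capitals to make plain how little separates them.
Apol9a: agccCacGcccatcctcaggcatgtcatTg
Apol9b: agccGacAcccatcctcaggcatgtcatGg
The values of either gene from these probes are therefore uncertain and may reflect both. A second Apol9a probe that shares no run of 25 bases with Apol9b gave 3.47 on intestine and 1.05 on crypt and was dim on both organoids. Its crypt to intestine difference was -1.73 on the log2 scale, against -1.36 for the probe read. Apol10a gave 13.0 and 15.7 on intestine and crypt, was not above background on y-organoid and gave 0.0831 on o-organoid, 189-fold below crypt. The y-organoid signal was at least 332-fold below crypt, a bound against a higher floor that sets no order between the organoids.

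Members with ISRE letters in a promoter were set beside those with an entry and none. On crypt against intestine, 17 of 20 with the letters were lower, with a median of -2.20, and 9 of 16 without, with a median of -1.24. Between y-organoid and crypt the counts were 12 of 20 (median -1.60) and 8 of 14 (-1.44), and between o-organoid and crypt 16 of 21 (-2.37) and 12 of 15 (-2.14). Between the organoids they were 11 of 18 (-1.67) and 5 of 13 (-0.81). The medians of the groups lay closest together where each organoid was set against crypt, and these differences carry no test.

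Genes around the pathway differed less between crypt and intestine than the members. Of 15 interferon genes on the array, between 2 and 4 were above background on any array, all at relative signals of 0.189 or lower, and Ifnb1 and Ifng on none. All 6 receptor subunits measured were above background on all arrays, and none differed by 2-fold between crypt and intestine (median -0.11). Ifngr2, a subunit for interferon gamma, gave 12.1, 11.2, 3.82 and 5.84, and Il10rb, shared by type III interferon and interleukin-10 receptors, 2.21, 2.04, 0.756 and 1.27. On y-organoid against crypt these 2 of 6 were lower, by 1.56 and 1.44 on the log2 scale, and on o-organoid 1 of 6, Il28ra, by 1.01.

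Of 12 upstream sensors, adaptors and kinases, 2 of 11 compared were lower on crypt than on intestine, Tmem173 (the adaptor STING) at -2.34 and Irf5 at a bound of -3.03. On y-organoid against crypt 5 of 10 were lower and Tmem173 was higher at 1.35, and on o-organoid 0 of 10 passed 2-fold in either direction. Of the 6 inhibitors, Socs1, which blocks Jak kinases, was lower in all 3 of these comparisons, at -1.93, -1.10 and -1.74. Socs3 was lower on crypt only, at -1.78, and Ptpn6, a phosphatase, on y-organoid only, at -1.09. A list of 26 further induced genes had 15 of 24 lower and 0 higher on crypt against intestine, 7 of 18 lower and 2 higher on y-organoid against crypt, and 10 of 18 lower and 0 higher on o-organoid. Ifi27l2a stood at -6.93 from intestine to crypt and Ifi47 at -6.45 from crypt to o-organoid. The widest difference of this list from crypt on y-organoid, that of Gbp6 (6.47), came from a probe with a GA repeat, and no member's probe holds such a repeat.

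Signals of markers of other cell types also differed between crypt and intestine. All 7 stromal markers and all 6 smooth muscle markers were above background on intestine, with summed relative signals of 51.0 and 85.8, while on the other arrays 0 stromal and 1 or 2 muscle markers were, with sums of at most 0.182 and 0.543. Of 18 immune markers, 18, 13, 7 and 9 were above background on intestine, crypt, y-organoid and o-organoid, and 15 were lower on crypt than on intestine. Ptprc, the marker of all white blood cells, was not above background on either organoid array. The immune sums were 234, 108, 163 and 56.6, of which Siglech alone gave 68.2, 73.9, 119 and 42.0, and Itgam 29.3, 25.8, 39.6 and 11.9. Sums add probes of unlike brightness, and Siglech and Itgam carry most of this sum on y-organoid. Endothelial markers were above background for 7, 4, 4 and 4 of 8. All 8 epithelial markers were above background on every array, with sums between 492 and 679 that the keratins Krt8, Krt18 and Krt19 lead. Against crypt, 5 of the 8 stayed within 2-fold on y-organoid and 7 on o-organoid. Vil1 was 6.90-fold lower on y-organoid and 4.66-fold lower on o-organoid. On y-organoid Epcam was 2.54-fold lower and Krt18 2.52-fold higher. The part of non-epithelial cells in the lower crypt values was not tested.

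Signals of markers of epithelial cell types also differed between the organoid arrays and crypt. All 7 enterocyte markers were lower on y-organoid than on crypt (median -4.29) and 6 of 7 on o-organoid (median -2.70), with summed relative signals of 1692, 1395, 78.9 and 244. All 5 stem cell markers were higher on y-organoid and 4 of 5 on o-organoid, with sums of 11.4, 27.0, 85.3 and 67.0, and all 3 Paneth cell markers were lower on both. Between the organoids, 4 of 7 enterocyte markers were past 2-fold higher on o-organoid and 0 lower, with a median of 1.23. The part of cell makeup in the organoid values was not tested. Xist was above background on the intestine array only, and the Y-linked Ddx3y and Eif2s3y on the other 3 arrays only, so that the sex of the source animals and the tissue cannot be told apart for crypt against intestine.

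**Figure D5:**
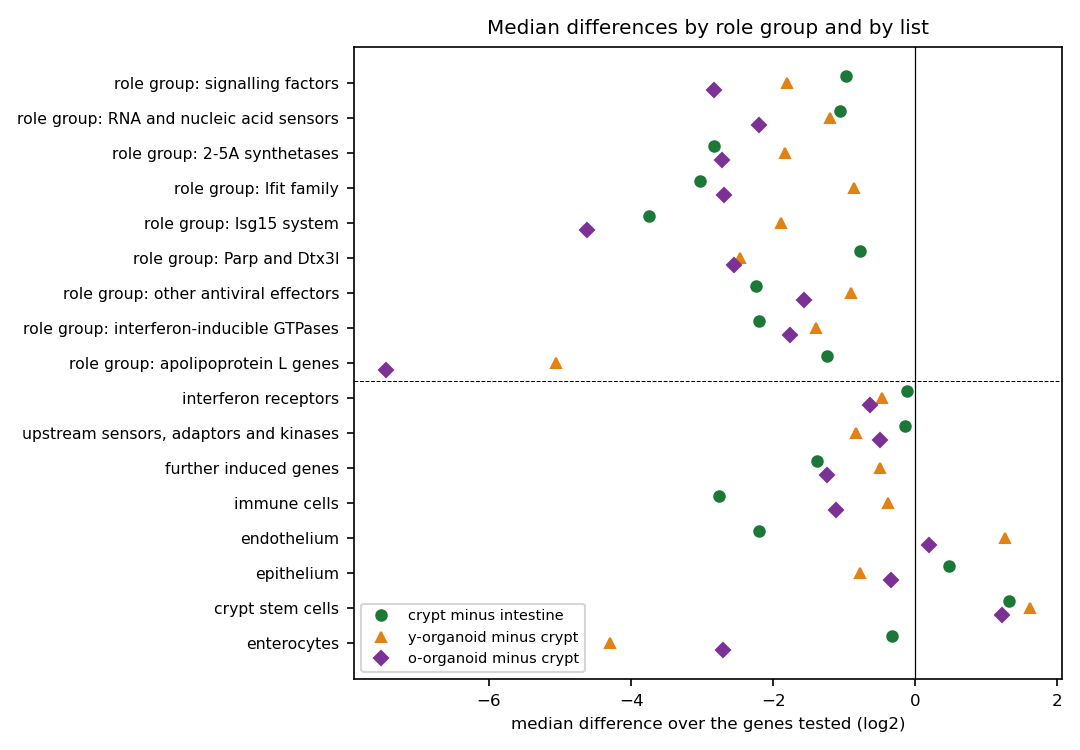
Median log2 difference over the genes compared, for the 9 role groups of the members (above the dashed line) and for lists of pathway genes and cell markers, in the 3 comparisons of crypt with intestine and of each organoid with crypt. The apolipoprotein L genes lie lowest on the organoid arrays, at -5.06 and -7.45, and the receptors stay between -0.64 and -0.11.

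Where a member had several probes above background, the probes gave the same sign in 11 of 11 pairs for crypt against intestine, 7 of 8 for y-organoid against crypt, 6 of 7 for o-organoid against crypt and 6 of 7 between the organoids. The largest gap was at Adar, 1.32 on the log2 scale between the organoids.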

How the data were processed

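Total RNA was labelled with Cy3 by a low-input kit, per the labels' protocols, and hybridised to one-colour Agilent arrays. The authors deposited 1 scanner file per sample with the intensity of each spot. Per the file headers, Agilent Feature Extraction 10.7.3.1 had subtracted background, applied spatial and multiplicative detrending and set surrogates for dim spots, and probe positions are on mm9. A series table the authors deposited holds, as a comparison with the scanner values showed, the ratio of each processed intensity to 1 constant per array, with column medians of 1.00, no centring and no sign. It was not used beyond its scaling.

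Of each array, 1377 control spots and flagged outlier spots were left out, and no spot was saturated. Intensities were put on the log2 scale, the 75th percentile was subtracted and repeated spots were averaged. With 1 array per group no test was run, and the number of arrays limits the precision. Counts at 2-fold are set beside all genes, and on simulated data for crypt against intestine, with 17760 genes compared, all 100 genes raised and all 100 lowered by 4-fold were called. The simulated arrays were copies of the intestine array with added noise, and only bright genes were changed. This checks the calculation alone, since bounds, dim signals and real differences between arrays did not enter it. All members may be named, in full the extremes of each role group. Members and lists were chosen with earlier results of these data known. Alternatives were normexp (limma 3.58.1, offset 50), quantile, median and detected-probe scaling, the mean over probes, other filters and 4-fold. Promoters are RefSeq's (GRCm38.p6).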

Additional observations from a re-analysis of the deposited data

Results flagged for a closer look

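In 4 of the 28 members measured on crypt and both organoids, the organoid arrays lay on opposite sides of the crypt array, each by more than 2 SDs of spot noise. Of all 14666 genes so measured, 17.1% did, so the members' share is near that of all genes. These are single arrays, and the difference between the organoids was not tested. On the log2 scale, Stat2 differed from crypt by 0.25 on y-organoid and by -1.16 on o-organoid, and the y-organoid value turned to -0.26 under median scaling. Bst2 differed by 1.16 and -0.57. Ifitm3 went the other way, by -0.90 and 0.41. Iigp1 differed by 0.62 and -0.87, at relative signals of 0.157 and 0.0559. Bst2, Ifitm3 and Iigp1 kept both directions under every alternative run, where any size of difference counts. For Iigp1, median scaling added -0.51 to the y-organoid difference of 0.62, so that little of it remained.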

How the results depend on the processing

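Medians are given for crypt against intestine, y-organoid against crypt, o-organoid against crypt and o-organoid against y-organoid, in this order, on the log2 scale. They were -1.89, -0.85, -1.54 and -1.03 with normexp, -2.14, -1.67, -2.14 and -0.93 with quantile normalization, and -1.29, -2.04, -2.25 and -0.60 with median scaling. With the percentile over detected probes the first 3 were -2.24, -1.31 and -2.19, and with the mean over probes the last 3 were -1.23, -2.22 and -1.13. Without a filter, crypt against intestine was -1.84 and o-organoid against crypt -2.94. With members above background on both arrays only, the medians were -1.84, -1.63, -2.22 and -1.01, and the counts of lower members were 22 for o-organoid against crypt and 14 between the organoids, since bounds drop out. At 4-fold, y-organoid against crypt had 0 higher and 15 lower, and o-organoid against y-organoid 0 higher and 11 lower. Over all genes, 829 were higher and 761 lower of 17210 in the former, and 164 higher and 522 lower of 17309 in the latter. Higher members numbered 3 for y-organoid against crypt (no filter), 1 for o-organoid against crypt (quantile, no filter), 2 between the organoids (quantile, median scaling, no filter), and 1 for each of the first 2 comparisons under median scaling. All medians kept their direction under the alternatives run, and no called member turned its sign. Normexp kept 31 of the 35 lower members on crypt, 19 of 27 on y-organoid and 33 of 37 on o-organoid, and 21 of 23 between the organoids. Some changes follow by construction, from leaving out dim values or from the constant that median or detected-probe scaling adds. Normexp was run with an offset of 50 added to every intensity, which by construction shrinks the folds of dim signals. The cause of the other changes was not tested. Signal over background limits the o-organoid values of the 18 members not detected there. No paired analysis was possible because each group has 1 sample, and no sample could be left out.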
